A study of Mus musculus with 12 samples.

Results

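Livers of C57BL/6 mice given the full relative dose of Aza-TdC (1x) were compared with livers given the low relative dose (0.1x). All of these mice were on the MASLD diet, which models metabolic dysfunction-associated steatotic liver disease, so the groups differed in dose alone as far as the labels say. Of the 12 bulk RNA libraries of the series, 6 entered the contrast: 0.1x replicates 1, 3 and 4, and 1x replicates 2, 4 and 5, the last of which carries library number 8 in its description. Every gene that passed a filter on low counts was a member, which left 13866 of the 55471 gene IDs counted. The other 6 libraries, 3 from untreated mice on the MASLD diet and 3 from mice on a standard diet (SD), helped to estimate the spread and are otherwise given as levels. The labels give no absolute dose, schedule, diet composition, age or sex, and do not say whether each library came from a separate mouse. The p-values therefore measure the spread between libraries, which may be technical.

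Aza-TdC is a thio-substituted deoxycytidine analogue. Cells phosphorylate it and build it into new DNA, where it traps the maintenance methyltransferase DNMT1, so that CpG methylation is diluted as cells divide. The trapping acts on the protein, and the Dnmt1 mRNA is not a direct readout of it. Hepatocytes of an adult liver divide rarely, and they share the tissue with resident macrophages (Kupffer cells), sinusoidal endothelial cells, stellate cells and recruited leukocytes, all of which contribute RNA to a bulk library.

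Total counts ran from 30213048 to 41852606 per library. Levels are given as CPM (counts per library size, brought to one scale by trimmed means, TMM), with values in the order 0.1x replicates 1, 3 and 4, then 1x replicates 2, 4 and 5. Differences are log2 fold changes of 1x over 0.1x with their standard error (SE), tested with edgeR's quasi-likelihood F test and called where the p, adjusted by Benjamini and Hochberg's method across the 13866 genes, was under 0.05. The label of liver was met by the hepatocyte markers. The 24 hepatocyte markers summed to between 140940 and 204050 CPM in the 0.1x libraries and between 156240 and 179500 CPM in the 1x libraries. Their median log2 fold change was 0.02, beside -0.01 over all genes tested. No member was at 0. Of the 24 markers 1 rose (Cps1, the first enzyme of the urea cycle) and 1 fell (Apoa2, an HDL apolipoprotein), and neither passed with the trend in transcript length described below removed.

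The transcript of the drug's target did not pass the test. Dnmt1 stood at 6.20, 5.30 and 6.68 CPM in the 0.1x libraries and at 7.02, 7.32 and 10.3 CPM in the 1x libraries, which do not overlap. The log2 fold change was 0.44 ± 0.17 (SE), with an adjusted p of 0.0918 by edgeR. It dropped to 0.14 once the dependence of counts on GC content and transcript length, described below, was removed. Untreated MASLD livers held 9.12 ± 0.547 CPM (SD, n = 3) and SD livers 6.43 ± 0.769 CPM (SD, n = 3).

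Between the doses, 1802 genes passed, which is 13% of those tested. At 1x, 989 were higher (7.13%) and 813 lower (5.86%), and 123 rises and 207 falls reached at least 2-fold. The balance depended on scaling: 54.9% of the calls were higher with TMM, and 43.2% with upper-quartile factors, which moved the median log2 fold change of all genes from -0.01 to -0.06. Non-overlapping libraries were common, at 16.3% of genes for 1x above 0.1x and 14.5% for 1x below it. The largest rises included Lonrf3 (log2 fold change 2.43), Mt2 (2.39), Cyp2b10 (2.22), Slc2a4 (1.99), Rasd1 (1.96) and Mt1 (1.95), and the largest falls Cxcl13 (-3.07), Mup18 (-2.08), Lst1 (-1.82), Clec4a2 (-1.80), Cd83 (-1.79) and Bhlhe41 (-1.76). Lonrf3, a little-studied RING finger gene, stood at 0.372, 0.339 and 0.426 CPM at 0.1x and at 1.98, 2.09 and 2.11 CPM at 1x, 2 tight groups at a low level (2.43 ± 0.35 SE, adjusted p = 0.00293, edgeR). Lonrf3, Mt1, Mt2, Cxcl13 and Clec4a2 kept their calls in the checks described below. Slc2a4 lost its call with the trend in transcript length removed (adjusted p = 0.0731) and in every fit without 1 library except that without 0.1x replicate 4. Rasd1 lost its call without 0.1x replicate 3 or 4 or 1x replicate 2 or 5, and its log2 fold change was 1.37 without 1x replicate 2. Mup18 and Lst1 lost theirs with the trend removed (adjusted p = 0.102 and 0.0721), Mup18 also without 0.1x replicate 1 or 1x replicate 2 or 5, and Lst1 without 1x replicate 2. Cd83 lost its call without 0.1x replicate 4 or 1x replicate 2 or 5.

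Short transcripts stood higher in the 0.1x than in the 1x libraries, and long transcripts lower. Length was that of the longest annotated transcript of each gene, which may not be the one expressed. In all 3 0.1x libraries the shortest quartile of transcripts lay above its mean over the 12 libraries, by 0.10, 0.21 and 0.12 on the log2 scale in replicates 1, 3 and 4, and the longest quartile lay below it, by -0.10, -0.24 and -0.13. In 1x replicate 2 the order was reversed (-0.20 for short and 0.18 for long transcripts). It was also reversed in 1x replicate 5 (-0.10 and 0.09) and in all 3 untreated MASLD libraries, whereas 1x replicate 4 was near 0 (-0.004 and 0.02). SD replicate 5 lay on the side of the 0.1x libraries (0.15 and -0.16). SD replicates 3 (0.03 and -0.02) and 4 (0.03 and 0.0003) deviated less. The median transcript was 5644 bases long among genes higher at 1x and 1530 bases among genes lower at 1x, beside 3176 over all genes tested. Pseudogenes made up 96 of the 813 falls, out of 485 pseudogenes tested. With a smooth trend in GC content and length removed from each library, 331 genes were higher (2.39%) and 325 lower (2.34%), 520 of which were shared with the calls on unadjusted counts, and the medians became 3701 and 3895 bases. The part of the trend in single calls was not tested. List counts from the full fit are to be read against the 7.13% of all genes tested that rose and the 5.86% that fell. With the trend removed these shares are 2.39% and 2.34%. Counts at an unadjusted p under 0.05 are to be read against 2179 higher and 2032 lower among the 13866 genes. For DESeq2 the counts over all genes are 1240 higher and 1146 lower among 14061 genes. Those for fits without 1 library are given below.

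**Figure D1:**
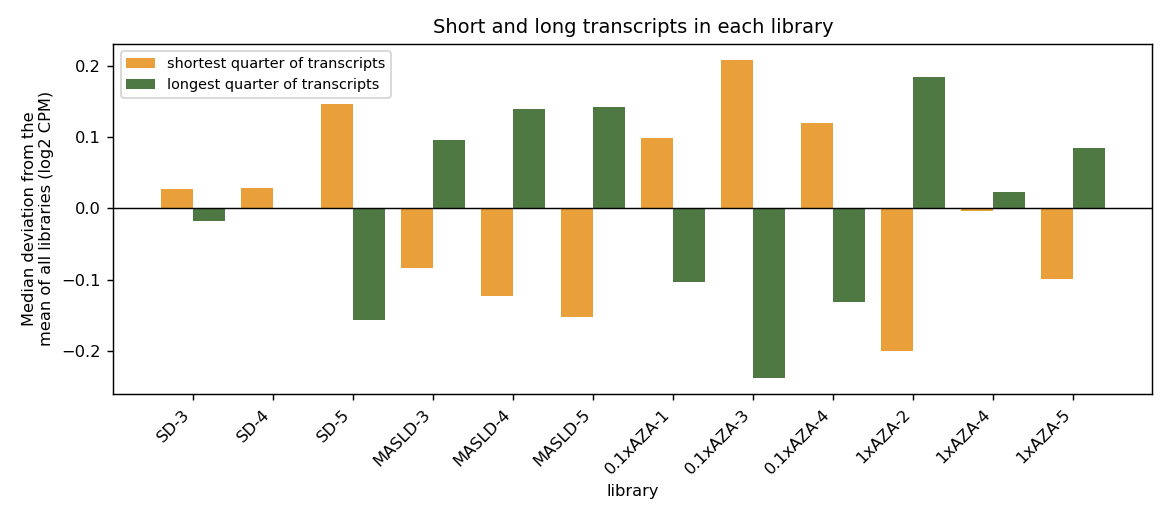
Median deviation (log2 CPM) of the shortest and the longest quartile of transcripts in each of the 12 libraries from the mean of all libraries. The 0.1x libraries and SD replicate 5 have clearly positive bars for short and negative bars for long transcripts. For 1x replicates 2 and 5 and the MASLD libraries the bars are the reverse.

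Leaving out 1x replicate 2, the 1x library with the steepest trend, left 131 rises and 79 falls, leaving out 1x replicate 5 left 519 and 263, and leaving out 0.1x replicate 1 left 644 and 491. Without 0.1x replicate 3 there were 789 and 554, without 0.1x replicate 4 798 and 680, and without 1x replicate 4 988 and 856. The 6 fits that each lacked 1 library gave between 131 and 988 rises and between 79 and 856 falls. They tested between 14177 and 14218 genes. List counts from a fit without 1 library are to be read against the calls of that same fit. A call is described below as held when it passed in the full fit, once the trend was taken out, and without each of the 6 libraries in turn, in the same direction each time. By this measure 107 rises (0.772% of genes tested) and 52 falls (0.375%) held. The fit without both 0.1x replicate 3 and 1x replicate 2 was not part of the measure. Among held genes, Cyp1a1, Por, Anxa2, Fmo2, Gstm2, Nme1, Ndufb2 and Rpl22l1 lost their calls in it (adjusted p between 0.0514 and 0.0686, edgeR). Mt1, Mt2, Igfbp1, Ddit4 and Per1 kept theirs.

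**Figure D2:**
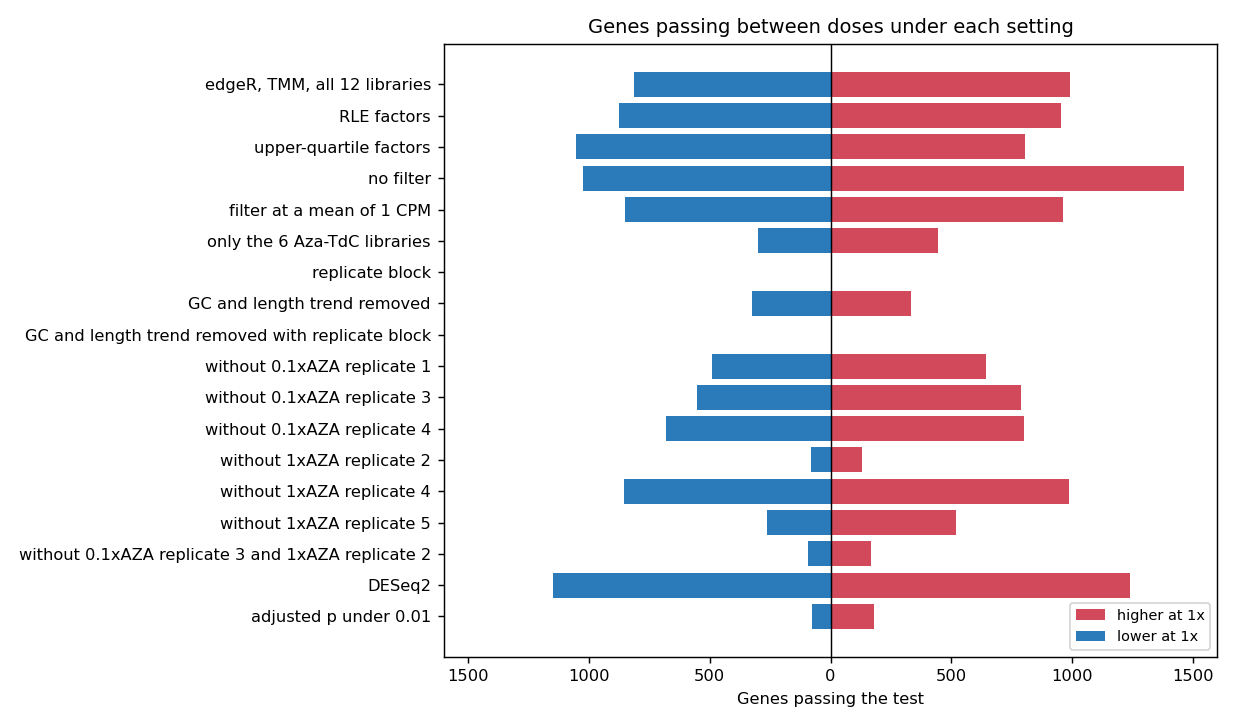
Number of genes higher (right) and lower (left) at 1x than at 0.1x under each analysis setting. The bars are longest with DESeq2 and without the filter on low counts, short without 1x replicate 2 (131 and 79), and absent with a replicate block.

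Among the largest rises were the metallothioneins, small cysteine-rich proteins that bind zinc and copper and that zinc, glucocorticoids and inflammatory signals are known to induce. Mt1 (chr8:94179082-94180327, GRCm38) stood at 10.9, 18.0 and 20.7 CPM in the 0.1x libraries and at 50.9, 48.8 and 91.7 CPM in the 1x libraries. Mt2 (chr8:94172664-94173568), its neighbour on the same strand, stood at 6.01, 6.25 and 8.81 CPM against 37.0, 24.1 and 49.5 CPM. Every 1x library was above every 0.1x library for both genes. The log2 fold changes were 1.95 ± 0.32 (SE; adjusted p = 0.00505, edgeR) for Mt1 and 2.39 ± 0.32 (SE; adjusted p = 0.00178, edgeR) for Mt2, and both held. Untreated MASLD livers lay near the low dose, at 22.6 ± 3.77 CPM for Mt1 and 9.85 ± 2.28 CPM for Mt2, and SD livers near or above the full dose, at 107 ± 45.8 and 52.1 ± 24.5 CPM (SD, n = 3 each, no test). Slc39a14, a zinc and iron importer, also rose and held (log2 fold change 0.69 ± 0.11 SE, adjusted p = 0.00547, edgeR), from 88.3, 102 and 96.4 CPM to 175, 144 and 143 CPM. Of the 28 tested genes of metal handling, these 3 rose and 1 fell, beside 7.13% and 5.86% of all genes tested, and with the trend removed 3 rose and 0 fell (in the full fit 8 and 2 at an unadjusted p under 0.05, 4 and 1 by DESeq2). Without 0.1x replicate 3 5 rose. The gene that fell was Fth1, the ferritin heavy chain that stores iron (-0.47 ± 0.12 SE, adjusted p = 0.0246, edgeR), a fall that was lost with the trend removed (adjusted p = 0.0874) and without 0.1x replicate 4, 1x replicate 2 or 1x replicate 5.

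Many of the genes that glucocorticoids induce in liver rose. Of 36 tested, 15 rose and 0 fell, beside 7.13% and 5.86% of all genes tested. At an unadjusted p under 0.05 the counts were 23 and 0, and DESeq2 gave 16 and 0. The median log2 fold change was 0.62 over the list, and 0.62 again with the trend removed, when 11 of the 36 rose. Omitting 1x replicate 2 left 5 rises, and without each of the other 5 libraries between 11 and 19 did. The 5 that held were Mt1, Mt2, Igfbp1, Ddit4 and Per1.

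Igfbp1, a secreted binding protein that restrains insulin-like growth factors and that fasting and glucocorticoids raise, stood at 15.8, 18.1 and 23.3 CPM in the 0.1x libraries and at 72.8, 54.8 and 55.7 CPM in the 1x libraries. Its log2 fold change was 1.68 ± 0.22 (SE; adjusted p = 0.00178, edgeR). Ddit4, an inhibitor of mTORC1, stood at 3.38, 2.0 and 3.90 CPM against 12.7, 8.42 and 10.1 CPM, a log2 fold change of 1.75 ± 0.22 (SE; adjusted p = 0.0016, edgeR). The 1x libraries lay above the 0.1x libraries in both cases, and untreated MASLD livers, at 27.6 ± 8.10 and 4.77 ± 0.721 CPM (SD, n = 3, no test), lay between the dose means. Other classical targets rose without holding throughout: Tsc22d3, which encodes the GILZ protein, by 0.79 ± 0.17, Errfi1, a brake on EGF receptor signalling, by 0.63 ± 0.13, Cebpd by 0.98 ± 0.22 and Lpin1 by 1.23 ± 0.27 on the log2 scale (SE). Fkbp5, a chaperone of the glucocorticoid receptor, rose by 1.29 ± 0.34 (adjusted p = 0.0267, edgeR) with 81.0 CPM in 0.1x replicate 3 beside 30.3 and 40.8 CPM in the other 0.1x libraries. Cdkn1a, which encodes the cell cycle inhibitor p21 and is listed both here and among p53 targets, rose by 1.5 ± 0.31 (adjusted p = 0.0103, edgeR). It stood at 26.8 and 29.0 CPM in 1x replicates 2 and 5 but at 10.6 CPM in replicate 4, against 7.13, 9.30 and 6.98 CPM at 0.1x, and the call was lost without 1x replicate 2. Tat, tyrosine aminotransferase, had a log2 fold change of 1.08 ± 0.35 that did not pass (adjusted p = 0.0545, edgeR).

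**Figure D3:**
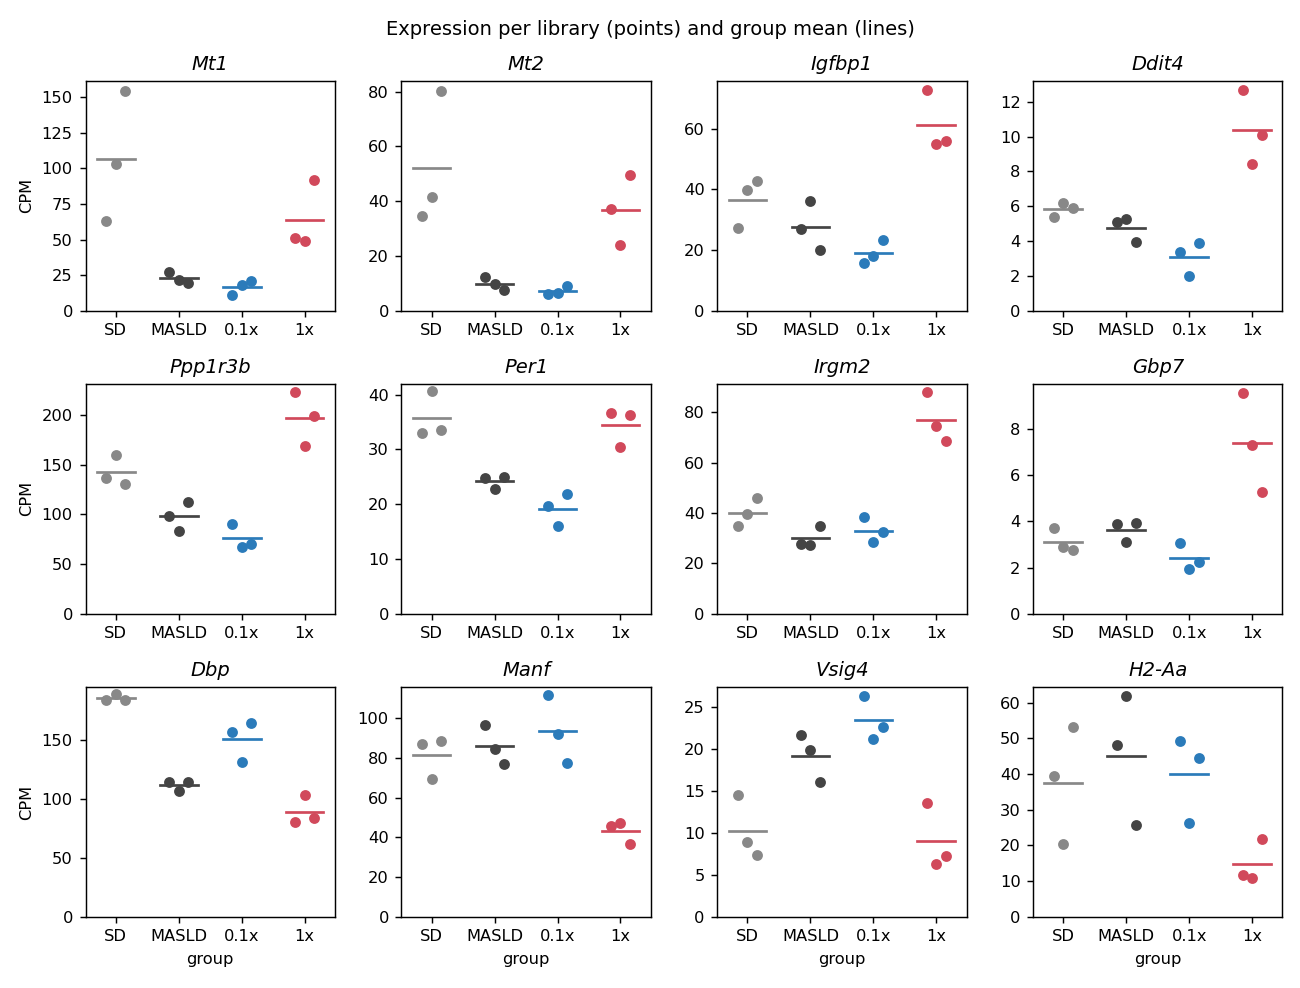
CPM of 12 genes in each library (points) with the group mean (lines) for standard diet (SD), untreated MASLD diet, and MASLD diet with 0.1x or 1x Aza-TdC. The 3 points at 1x lie above the 3 at 0.1x for Mt1, Mt2, Igfbp1, Ddit4, Ppp1r3b, Per1, Irgm2 and Gbp7, and below them for Dbp, Manf, Vsig4 and H2-Aa.

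Clock genes moved in both directions. Of 29 tested genes of the circadian clock and its output, 11 rose and 2 fell. Once the trend was removed 6 rose and 2 fell, and without 1x replicate 2 3 rose and 1 fell, while without 0.1x replicates 1 or 4 or 1x replicate 5 between 5 and 7 rose. Per1 and Per2 encode repressors that close the clock's feedback loop. Per1 stood at 19.7, 16.0 and 21.8 CPM at 0.1x and at 36.6, 30.4 and 36.2 CPM at 1x (log2 fold change 0.84 ± 0.13 SE, adjusted p = 0.00417, edgeR, held). Per2 stood at 6.82, 7.98 and 7.40 CPM against 14.4, 12.2 and 14.5 CPM (0.89 ± 0.16 SE, adjusted p = 0.0063, edgeR), and lost its call with the trend removed (adjusted p = 0.0575). Per3 and Cry1, from the same repressor arm, rose by 0.96 ± 0.23 and 0.80 ± 0.25 on the log2 scale. Dbp, an output factor of the clock that peaks at another time of day than the Per genes, fell and held: 156, 131 and 164 CPM against 79.9, 103 and 83.8 CPM (-0.76 ± 0.12 SE, adjusted p = 0.00417, edgeR). Bhlhe41, a transcriptional repressor of the clock, fell from 5.45, 3.51 and 3.80 CPM to 0.841, 1.56 and 1.37 CPM (-1.76 ± 0.39 SE, adjusted p = 0.0135, edgeR), a call lost without 1x replicate 2. Arntl, the activator of the loop, was low at 0.688 to 1.05 CPM in the 0.1x libraries and 0.696 to 2.14 CPM in the 1x libraries and did not pass (adjusted p = 0.196, edgeR). The labels give no time of day for any sample, so dose and collection time cannot be told apart.

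A part of the genes of glucose and glycogen handling rose. Of 31 tested, 8 rose and 1 fell, with a median log2 fold change of 0.26; with the trend removed 5 rose and 1 fell, and without 1x replicate 2 4 rose. Ppp1r3b, the liver subunit that directs protein phosphatase to glycogen and so favours glycogen synthesis, had the smallest adjusted p of the list. It stood at 90.3, 66.7 and 70.5 CPM at 0.1x and at 223, 169 and 198 CPM at 1x, a log2 fold change of 1.38 ± 0.15 (SE; adjusted p = 0.00149, edgeR), and held. Its relative Ppp1r3c rose by 1.46 ± 0.32 (SE; adjusted p = 0.0134, edgeR). Pfkfb3, which makes the allosteric activator of glycolysis, and Insr, the insulin receptor, rose by 1.05 ± 0.17 and 0.82 ± 0.13 on the log2 scale, and both held. The member that fell was Trib3, a pseudokinase that binds AKT and is a target of the integrated stress response: 14.9, 14.6 and 12.7 CPM against 8.37, 6.67 and 7.66 CPM (-0.90 ± 0.22 SE, adjusted p = 0.019, edgeR), lost without 1x replicate 2 or 5. The gluconeogenic genes Pck1 and G6pc did not pass, with log2 fold changes of 0.47 ± 0.23 and 0.50 ± 0.21 (adjusted p = 0.188 and 0.129, edgeR).

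Interferon-inducible GTPases rose in part. The IRG and GBP families are large GTPases that interferon gamma and type I interferons induce and that attack vacuoles of intracellular pathogens. Of 23 tested genes of the list, 5 rose and 0 fell (10 and 0 at an unadjusted p under 0.05, 6 and 0 by DESeq2), and 4 rose with the trend removed. Omitting 1x replicate 2 left 3 rises. The 3 that held were Irgm2, Igtp and Gbp7. Their promoters, from the RefSeq promoter table (GRCm38.p6), are printed 5′ to 3′ as the 250 bases before the annotated start. These genes were chosen because their calls held, and no promoter of a member without a call is printed. Capitals mark matches on either strand to a pair of GAAA repeats with any 2 bases between them, the core of an interferon-stimulated response element, and to TTCNNNGAA, the core of a gamma-activated sequence.
Igtp (chr11:58199306-58199555, plus strand): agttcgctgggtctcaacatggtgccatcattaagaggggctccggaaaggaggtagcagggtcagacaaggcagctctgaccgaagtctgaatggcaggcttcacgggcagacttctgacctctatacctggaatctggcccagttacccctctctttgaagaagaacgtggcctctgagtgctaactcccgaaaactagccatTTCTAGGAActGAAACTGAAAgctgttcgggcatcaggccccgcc
Irgm2 (chr11:58214727-58214976, plus strand): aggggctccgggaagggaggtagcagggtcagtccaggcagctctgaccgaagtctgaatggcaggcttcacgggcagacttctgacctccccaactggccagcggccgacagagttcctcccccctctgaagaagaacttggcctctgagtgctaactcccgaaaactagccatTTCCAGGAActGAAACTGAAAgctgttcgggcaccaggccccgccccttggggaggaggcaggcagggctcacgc
Gbp7 (chr3:142530086-142530335, plus strand): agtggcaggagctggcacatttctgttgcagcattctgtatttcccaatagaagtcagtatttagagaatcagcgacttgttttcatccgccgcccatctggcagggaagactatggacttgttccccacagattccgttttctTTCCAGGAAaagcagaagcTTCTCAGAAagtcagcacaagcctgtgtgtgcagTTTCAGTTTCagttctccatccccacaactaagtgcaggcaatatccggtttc
In Igtp the TTCNNNGAA match begins 45 bases and the GAAA pair 34 bases before the start, and in Irgm2 they begin 75 and 64 bases before it, in the same order. In Gbp7 the GAAA pair is on the minus strand, 53 bases before the start, with TTCNNNGAA matches at 106 and 87 bases. TTCNNNGAA reads the same on both strands and was counted once per place. Of the 32851 promoters in that table, 2.98% hold such a GAAA pair in the same window and 7.02% a TTCNNNGAA match. The Igtp and Irgm2 windows also share long runs of bases outside the marked matches, so they are not independent examples. A match describes the letters and says nothing on binding.

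Irgm2 (chr11:58199618-58222782) stood at 38.4, 28.5 and 32.3 CPM at 0.1x and at 88.2, 74.4 and 68.6 CPM at 1x, with no overlap (log2 fold change 1.22 ± 0.15 SE, adjusted p = 0.0015, edgeR). Igtp (chr11:58199556-58207591), which encodes Irgm3, stood at 37.4, 24.8 and 30.1 CPM against 77.4, 65.9 and 61 CPM (1.15 ± 0.18 SE, adjusted p = 0.00417, edgeR). The 2 gene models overlap on the same strand, the RefSeq start of Irgm2 lies inside the longer GENCODE model, and reads could be shared between them, so their values are not independent. Gbp7 (chr3:142530342-142550149) stood at 3.07, 1.94 and 2.23 CPM against 9.56, 7.32 and 5.29 CPM (1.62 ± 0.24 SE, adjusted p = 0.00306, edgeR). Untreated MASLD livers held less Igtp and Gbp7 than any 1x library, at 18.6 ± 2.71 and 3.65 ± 0.472 CPM (SD, n = 3, no test). Other members gave no call: Iigp1, with 168 to 235 CPM at 0.1x and 197 to 248 CPM at 1x, did not pass, with a log2 fold change of 0.16 ± 0.15, and Irgm1 gave 0.39 ± 0.17 (adjusted p = 0.509 and 0.14, edgeR), and the chemokine genes Cxcl9 and Cxcl10, which interferon gamma also induces, gave -0.48 ± 0.29 and -0.61 ± 0.33 (adjusted p = 0.291 and 0.227). GBP genes have near-identical copies, and the reads that fit several of them are uncertain.

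Some antiviral interferon genes and genes of class I antigen presentation rose as well. Of 48 antiviral genes 7 rose, among them Irf7, the factor that amplifies type I interferon (30.5, 30.4 and 36.2 CPM against 64.8, 44.8 and 48.9 CPM, log2 fold change 0.71 ± 0.16 SE, adjusted p = 0.0157, edgeR), and 1 fell, Ifi27l2a. After removal of the trend 6 rose. Without 0.1x replicate 3 3 rose, without 0.1x replicate 4 or 1x replicate 5 4 rose, and without 1x replicate 2 0 rose in edgeR. In the full fit the counts at an unadjusted p under 0.05 were 11 higher and 1 lower, and DESeq2 gave 9 and 1. Isg15, a ubiquitin-like protein and a standard marker of interferon signalling, had overlapping values of 9.12 to 9.93 and 8.62 to 9.17 CPM (adjusted p = 0.699). Of 22 genes of MHC class I and the immunoproteasome, 9 rose and 0 fell (12 and 0 at an unadjusted p under 0.05, 9 and 0 by DESeq2), 5 with the trend removed, 2 without 1x replicate 2, and 3 without 0.1x replicate 3 or 1x replicate 5. The 9 were the proteasome subunits Psmb8, Psmb9 and Psmb10, the trimming peptidase Erap1, the peptide transporter Tap1, the transcriptional activator Nlrc5, and H2-Q4, H2-Q6 and H2-Q7. H2-Q6 and H2-Q7 held, with log2 fold changes of 0.90 ± 0.15 and 0.80 ± 0.13 (SE; adjusted p = 0.00574 and 0.00505, edgeR). These genes are close copies of each other, so the split of reads between them is uncertain. The abundant class I genes H2-K1, H2-D1 and B2m did not pass (0.21 ± 0.15, 0.31 ± 0.13 and -0.22 ± 0.17).

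MHC class II went the other way. Class II molecules present antigen on macrophages, dendritic cells and B cells. All 11 tested genes of the pathway had a negative log2 fold change, with a median of -1.01, and 4 fell: H2-Aa, H2-Ab1, Cd74 and Ctss. With the trend removed 1 fell, H2-Aa (adjusted p = 0.0496), and H2-Ab1, Cd74 and Ctss lost their calls (adjusted p = 0.113, 0.13 and 0.353). H2-Aa stood at 49.4, 26.4 and 44.7 CPM at 0.1x and at 11.7, 10.8 and 21.9 CPM at 1x (-1.44 ± 0.37 SE, adjusted p = 0.0243, edgeR). Cd74, the invariant chain, overlapped between the doses, with 110, 45.3 and 85.9 CPM against 33.0, 26.0 and 50.4 CPM (-1.14 ± 0.36 SE, adjusted p = 0.0479, edgeR). DESeq2 also called 4, and 8 were lower at an unadjusted p under 0.05. The edgeR count was 0 without 0.1x replicate 1, 0.1x replicate 4, 1x replicate 2 or 1x replicate 4, 4 without 1x replicate 5 and 6 without 0.1x replicate 3. Untreated MASLD livers held 45.2 ± 18.2 CPM of H2-Aa (SD, n = 3).

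Some markers of Kupffer cells fell at the full dose. Of 21 tested, 7 fell and 0 rose (11 and 0 at an unadjusted p under 0.05, and 11 and 0 by DESeq2), with a median log2 fold change of -0.60. The list summed to between 838 and 894 CPM in the 0.1x libraries and between 553 and 727 CPM in the 1x libraries, and no member was at 0. Vsig4, a complement receptor of resident macrophages, stood at 26.4, 21.2 and 22.6 CPM against 13.6, 6.33 and 7.21 CPM (-1.37 ± 0.27 SE, adjusted p = 0.00893, edgeR). Folr2, a folate receptor, stood at 15.7, 12 and 11.3 CPM against 7.65, 2.86 and 3.78 CPM (-1.44 ± 0.30 SE, adjusted p = 0.0115, edgeR). Clec4f, a lectin particular to mouse Kupffer cells, stood at 87.0, 76.7 and 74.4 CPM against 62.1, 31.5 and 29.5 CPM (-0.95 ± 0.24 SE, adjusted p = 0.0218, edgeR). Timd4, Csf1r, C1qa and Lyz2 fell as well, by 1.16, 1.10, 0.75 and 1.11 on the log2 scale. Among the libraries, 1x replicate 2 was the highest of the 1x libraries for Vsig4, Folr2 and Clec4f, and 6 markers fell without it. By contrast 2 fell without 1x replicate 4 or without 1x replicate 5, and 4 without 0.1x replicate 1. Once the trend was removed 2 fell, Csf1r and Clec4f. Other markers did not pass: Adgre1, which encodes F4/80, Marco and Slc40a1 had log2 fold changes of 0.06 ± 0.26, 0.82 ± 0.44 and 0.17 ± 0.14 (adjusted p = 0.897, 0.222 and 0.414, edgeR). In bulk tissue fewer cells of a type and less RNA per cell cannot be told apart.

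Other myeloid lists gave fewer calls, and fewer again with the trend removed. Of 20 markers of lipid-associated macrophages 4 fell, Clec7a, Cd9, Anxa5 and Plin2, and 1 rose, Mmp14. After removal of the trend 2 fell, Clec7a and Plin2, and without 1x replicate 2 1 fell. The list summed to 3223 to 3902 CPM at 0.1x and to 2604 to 3042 CPM at 1x, and Plin2, which hepatocytes also express, made up 556 to 1134 CPM of it. Clec7a, the beta-glucan receptor dectin-1, stood at 7.75, 8.16 and 6.09 CPM against 2.40, 2.50 and 3.44 CPM (-1.41 ± 0.28 SE, adjusted p = 0.0094, edgeR), lost without 1x replicate 2. Trem2, the receptor that defines these cells, lay at 0.651 to 2.03 CPM against 0.687 to 1.18 CPM and did not pass (adjusted p = 0.618). Of 19 tested monocyte and neutrophil markers 2 fell, Fcgr4 and Lyz2, beside 5.86% of all genes tested. With the trend removed 0 fell in edgeR (7 were lower at an unadjusted p under 0.05 in the full fit, and 3 by DESeq2), and 1 fell in each fit without 1 library except that without 0.1x replicate 4, where 2 did. Among single genes that held, Cxcl13, a B-cell-attracting chemokine, dropped from 1.77, 1.6 and 0.819 CPM to 0.252, 0.072 and 0.159 CPM (-3.07 ± 0.55 SE, adjusted p = 0.00634, edgeR), and Ly86, the partner of the receptor RP105 on myeloid and B cells, from 9.73, 6.22 and 6.72 CPM to 3.20, 2.62 and 2.91 CPM (-1.38 ± 0.24 SE, adjusted p = 0.00574, edgeR). Tmsb4x, an actin-binding peptide abundant in leukocytes, fell from 157, 141 and 117 CPM to 45.6, 52.0 and 53.6 CPM (-1.46 ± 0.24 SE, adjusted p = 0.00505, edgeR).

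Markers of the remaining cell types gave few or no calls. In edgeR 0 of 25 sinusoidal endothelial, 0 of 24 stellate cell, 0 of 20 T and NK cell and 0 of 13 B and plasma cell markers passed in either direction. At an unadjusted p under 0.05, 2 endothelial and 2 stellate markers were higher, and 1, 2, 1 and 3 markers of the 4 lists, in that order, were lower, while DESeq2 called 1 stellate marker higher and 2 B-cell markers lower. The median log2 fold changes were 0.07 for endothelial, -0.15 for stellate, -0.46 for T and NK cell and -0.73 for B and plasma cell markers, the last 2 at low levels. Haemoglobin and other red cell genes, which report blood left in the tissue, summed to 497 to 606 CPM at 0.1x and to 241 to 394 CPM at 1x. Of these 11, 4 fell, all of them globins (Hba-a1, Hba-a2, Hbb-bs and Hbb-bt), and 0 did with the trend removed or without 1x replicate 2. Without 0.1x replicate 1 1 fell, and without 0.1x replicate 4 or 1x replicate 5 2 did. The part of residual blood in the falls of leukocyte genes was not tested.

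**Figure D4:**
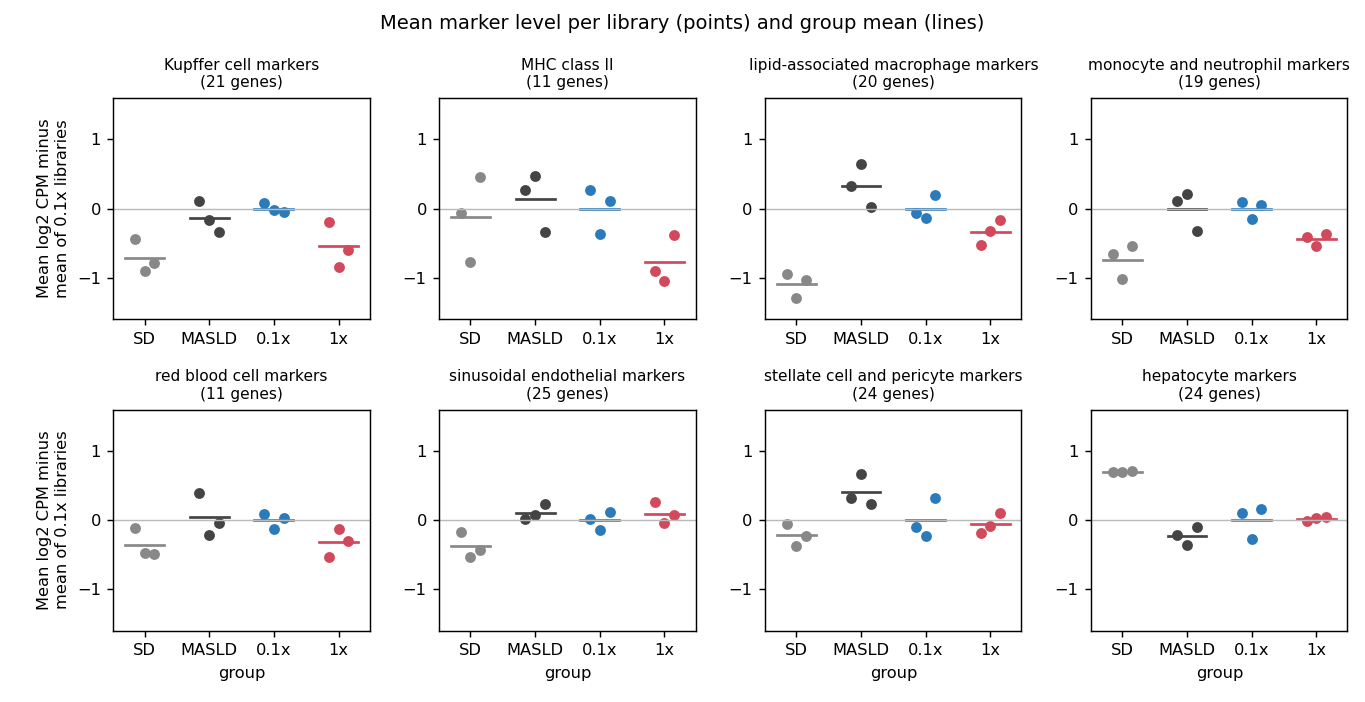
Mean log2 CPM of 8 marker lists in each library (points) minus the mean of the 0.1x libraries, with group means (lines), for the SD, MASLD, 0.1x and 1x groups. The Kupffer cell, MHC class II, lipid-associated macrophage, monocyte and red blood cell lists lie lower in all 3 1x libraries than in any 0.1x library. Before subtraction, the highest 1x and lowest 0.1x means are 2.4055 and 2.4084 for MHC class II. They are 3.5977 and 3.6018 for red blood cell markers, and 5.1395 and 5.1686 for lipid-associated macrophage markers. The endothelial, stellate and hepatocyte lists overlap.

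Some genes of stress responses fell at the full dose. The unfolded protein and integrated stress responses raise chaperones and amino acid genes when protein folding in the endoplasmic reticulum or translation is disturbed. Of 35 tested, 9 fell and 1 rose (Sesn2), and with the trend removed 5 fell. There were 2 falls without 1x replicate 2 or 1x replicate 5, and 5 or 6 without 0.1x replicate 1, 0.1x replicate 4 or 1x replicate 4. Manf, a secreted protein of the endoplasmic reticulum that the unfolded protein response induces, held: 112, 92.2 and 77.5 CPM against 46.0, 47.1 and 36.8 CPM (-1.12 ± 0.15 SE, adjusted p = 0.00214, edgeR). Hspa5, the chaperone BiP, fell by 0.52 ± 0.15 and Atf5, a transcription factor of the integrated stress response, by 0.56 ± 0.13 on the log2 scale (adjusted p = 0.0331 and 0.0145, edgeR). Ddit3, which encodes CHOP, stood at 2.48, 3.42 and 2.82 CPM against 1.43, 1.82 and 1.66 CPM (-0.83 ± 0.24 SE, adjusted p = 0.0379, edgeR).

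Targets of NRF2, the factor that drives glutathione and antioxidant genes, fell in part too. Of 33 tested, 8 fell and 0 rose (17 and 2 at an unadjusted p under 0.05, 12 and 1 by DESeq2), and 6 fell with the trend removed. Omitting 1x replicate 2 left 1 fall, and omitting 1x replicate 5 left 4. Gclc, the catalytic subunit that limits glutathione synthesis, stood at 307, 387 and 374 CPM against 217, 235 and 242 CPM (-0.62 ± 0.12 SE, adjusted p = 0.00879, edgeR). The glutathione transferase Gstm2 held, with 82.3, 113 and 99.3 CPM against 54.8, 56.2 and 62.0 CPM (-0.77 ± 0.14 SE, adjusted p = 0.00662, edgeR), and its neighbour Gstm3 fell by 1.05 ± 0.20. Gstm genes are close copies whose reads may be split. Nqo1, the most used marker of the pathway, had a log2 fold change of -0.45 ± 0.18 and did not pass (adjusted p = 0.103).

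Lipid genes moved in both directions. Of 28 tested genes of fatty acid and triglyceride synthesis 3 rose, Acacb, Lpin1 and Lpin2, and 3 fell, Elovl3, Me1 and Mogat1, beside 7.13% and 5.86% of all genes tested. Once the trend was removed 1 rose, Lpin1, and 1 fell, Elovl3, and without 1x replicate 2 0 rose and 0 fell in edgeR (in the full fit 6 and 4 at an unadjusted p under 0.05, 4 and 4 by DESeq2). Without 0.1x replicate 4 1 fell. Acacb, the acetyl-CoA carboxylase that restrains fatty acid oxidation, stood at 112, 99.8 and 129 CPM at 0.1x and at 249, 236 and 176 CPM at 1x, with no overlap (0.96 ± 0.22 SE, adjusted p = 0.0164, edgeR), and lost its call with the trend removed (adjusted p = 0.151). Elovl3, an elongase of very long fatty acids, stood at 211, 184 and 126 CPM against 85.8, 76.5 and 72.9 CPM (-1.14 ± 0.25 SE, adjusted p = 0.0124, edgeR). Mogat1, which makes diacylglycerol, fell by 0.74 ± 0.21 on the log2 scale (adjusted p = 0.0306, edgeR) and lost its call with the trend removed (adjusted p = 0.176).

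Plin2, the coat protein of lipid droplets, fell from 895, 914 and 1134 CPM to 556, 671 and 715 CPM (-0.60 ± 0.13 SE, adjusted p = 0.0131, edgeR), lost without 1x replicate 2, and untreated MASLD livers held 1146 ± 49.9 CPM (SD, n = 3). Of 29 tested genes of lipid droplets and fatty acid uptake 4 fell, Plin2, Fabp1, Fabp2 and Fabp4, and 1 rose, Fitm2. Omitting 1x replicate 2 left 0 of these falls. Of these falls only that of Plin2 passed with the trend removed. Cidec, a droplet fusion protein, Cd36, a fatty acid transporter, Scd1, the stearoyl-CoA desaturase, and Fasn, which makes palmitate, did not pass, with log2 fold changes of -0.17 ± 0.25, -0.13 ± 0.23, -0.28 ± 0.19 and 0.32 ± 0.34 (adjusted p = 0.691, 0.744, 0.347 and 0.569, edgeR). Fasn spread from 213 to 501 CPM among the 0.1x libraries and from 285 to 708 CPM among the 1x libraries. Ppara, the fatty acid sensor that drives oxidation genes, rose from 43.0, 79.9 and 52.6 CPM to 150, 108 and 110 CPM (1.06 ± 0.21 SE, adjusted p = 0.00879, edgeR), lost without 1x replicate 2. Its targets did not rise as a list: of 43 tested, Ppara itself among them, 2 rose, 1 fell, and the median was -0.02. After removal of the trend 1 rose, Ppara, and 0 fell, and without 1x replicate 2 0 rose and 0 fell in edgeR (6 and 2 at an unadjusted p under 0.05 in the full fit, 3 and 1 by DESeq2). Without 0.1x replicate 1, 0.1x replicate 4 or 1x replicate 5 1 rose and 0 fell. Abca1, the cholesterol exporter, rose and held, with 62.7, 49.7 and 56.2 CPM against 137, 108 and 106 CPM (1.06 ± 0.14 SE, adjusted p = 0.00178, edgeR), and untreated MASLD livers lay at the full-dose level, 117 ± 4.41 CPM (SD, n = 3). Fgf21, a fasting hormone of the liver, Cyp7a1, which catalyses the limiting step from cholesterol to bile acids, and Igf1 did not pass (adjusted p = 0.729, 0.147 and 0.714, edgeR), while Klb, the co-receptor of FGF21, rose by 0.47 ± 0.15 (adjusted p = 0.0474, edgeR), a call lost in each fit without 1 library except that without 1x replicate 5.

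Targets of the receptors CAR, PXR and AHR gave 2 rises and 3 falls among 35 tested, beside 7.13% and 5.86% of all genes tested. Their median log2 fold change was -0.09. With the trend removed 2 rose and 3 fell, without 1x replicate 2 1 and 2, and without 1x replicate 4 2 and 8. At an unadjusted p under 0.05 in the full fit 5 were higher and 13 lower, and DESeq2 gave 4 and 8. Among genes of drug metabolism, Por, the electron donor of all microsomal P450 enzymes, rose and held: 478, 423 and 705 CPM against 928, 965 and 1190 CPM (0.94 ± 0.20 SE, adjusted p = 0.0117, edgeR). Cyp2b10, the classical target of the receptor CAR, stood at 1.05, 4.47 and 5.18 CPM against 14.1, 13.4 and 22.3 CPM (2.22 ± 0.62 SE, adjusted p = 0.0324, edgeR). The call was lost without 0.1x replicate 1 or 3 or 1x replicate 2 or 5, and untreated MASLD livers spread widely, at 21.7 ± 16.4 CPM (SD, n = 3). Cyp1a1, the classical target of the aryl hydrocarbon receptor, fell and held at a low level (1.43, 2.16 and 2.33 CPM against 1.05, 0.672 and 0.740 CPM, -1.25 ± 0.27 SE, adjusted p = 0.0135, edgeR). Cyp26b1, which breaks down retinoic acid, rose and held from 4.68, 4.59 and 5.21 CPM to 12.3, 16.3 and 12.6 CPM (1.51 ± 0.19 SE, adjusted p = 0.0015, edgeR). Prodh, the first enzyme of proline breakdown, rose and held by 0.99 ± 0.15, and it was 1 of 5 rises among 42 genes of amino acid catabolism, where 2 fell. In the same list 6 rose and 0 fell with the trend removed, and 1 rose without 1x replicate 2, and 2 without 0.1x replicate 1 or 1x replicate 5.

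Genes bearing on the drug itself are given here beside the 7.13% of all genes tested that rose and the 5.86% that fell. Of 25 tested genes of DNA methylation and demethylation 1 rose, Tdg, the glycosylase that excises oxidised methylcytosine (0.75 ± 0.20 SE, adjusted p = 0.0276, edgeR, lost without 0.1x replicates 1 or 4 or 1x replicate 2), and 1 fell and held, Gadd45a, a stress gene linked to DNA repair and demethylation: 4.87, 8.35 and 6.65 CPM against 2.92, 2.57 and 1.85 CPM (-1.43 ± 0.24 SE, adjusted p = 0.00574, edgeR). The counts were 1 and 1 with the trend removed too, 6 higher and 1 lower at an unadjusted p under 0.05, and 2 and 1 by DESeq2. Dnmt3a, Tet2 and Uhrf1 did not pass (adjusted p = 0.898, 0.174 and 0.654). Dnmt3b, a de novo methyltransferase, stood at 0.124, 0.0924 and 0.0655 CPM at 0.1x and at 0.294, 0.24 and 0.555 CPM at 1x. The doses did not overlap at this low level, and the gene did not pass (1.89 ± 0.73 SE, adjusted p = 0.0942, edgeR). Among 30 genes that take up, activate or break down deoxycytidine analogues 3 fell, Nme1, Abcc5 and Cmpk1, the first of which held (-0.93 ± 0.16 SE, adjusted p = 0.00575, edgeR). With the trend removed 2 fell, Nme1 and Abcc5, and 1 fell without 0.1x replicate 1, 0.1x replicate 3, 1x replicate 2 or 1x replicate 5. Nme1 and Cmpk1 are kinases that finish the phosphorylation of such analogues, and Abcc5 exports nucleotide analogues. Dck, the kinase of the first step, and the deaminase Cda did not pass, with log2 fold changes of -0.05 ± 0.22 and 0.18 ± 0.23 (adjusted p = 0.908 and 0.653, edgeR). Of 17 tested imprinted genes 0 passed in edgeR (1 higher and 2 lower at an unadjusted p under 0.05, 1 and 1 by DESeq2). Of 29 germline genes that promoter methylation keeps silent, 19 had no count in any of the 6 libraries, and those that missed the filter with counts had at most 34 over all 6 (Piwil2). The 1 that passed the filter was Brdt, a testis bromodomain gene, with 0.744, 1.36 and 0.786 CPM at 0.1x and 0.82, 1.3 and 0.502 CPM at 1x. The doses overlapped and it did not pass (adjusted p = 0.844, edgeR). Of 40 cell cycle genes 0 passed in edgeR (3 higher and 3 lower at an unadjusted p under 0.05, 1 and 0 by DESeq2), and of 31 p53 targets 3 rose (Cdkn1a, Trp53inp1 and Sesn2) and 2 fell (Gadd45a and Bax), near the shares of 7.13% and 5.86% over all genes tested. Once the trend was removed 2 rose and 2 fell, and without 1x replicate 2 1 rose and 1 fell.

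Many genes of oxidative phosphorylation and ribosomal proteins, which often have short transcripts, fell. Of 75 nuclear genes of the respiratory chain 41 fell, and of 79 cytosolic ribosomal protein genes 32 did, with medians of -0.47 and -0.42. After removal of the trend the counts dropped to 7 and 5 and the medians to -0.12 and -0.11. Without 1x replicate 2 they were 6 and 1, without 1x replicate 5 12 and 10, and without 0.1x replicate 3 18 and 16. The respiratory chain genes that held were Ndufb2, Ndufb9 and Atp5o, and the ribosomal gene that held was Rpl22l1, a paralogue of Rpl22. The length used for Ndufb2 was 4371 bases, above the median of 3176 over all genes tested. Its log2 fold change was -1.50 before and -1.56 after removal of the trend. Of the 13 messenger genes of the mitochondrial genome 0 passed in edgeR (0 higher and 3 lower at an unadjusted p under 0.05, 0 and 1 by DESeq2), with a median of -0.47 that became 0.05 with the trend removed.

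**Figure D5:**
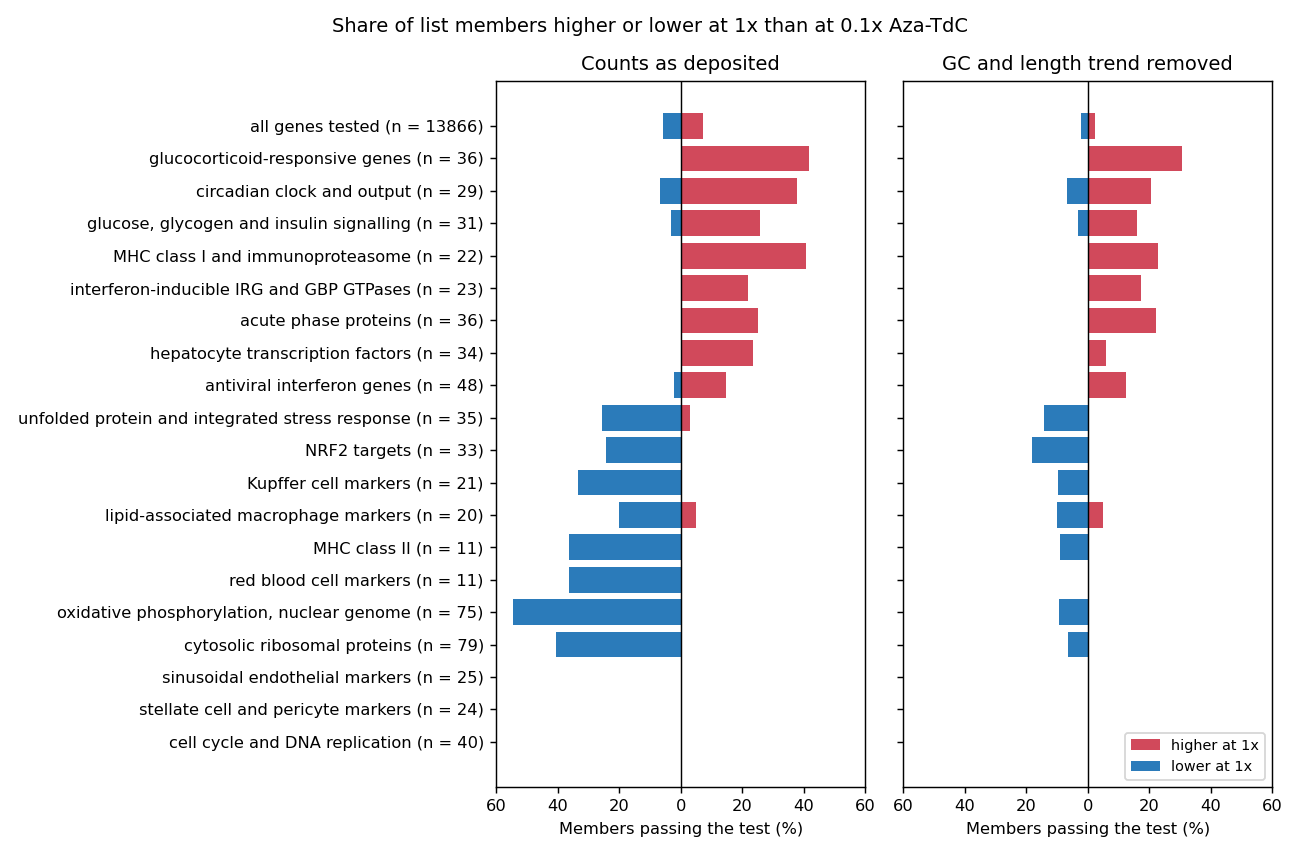
Share of tested list members that were higher (right) or lower (left) at 1x than at 0.1x, on counts as deposited and after removal of the GC and length trend, with all genes tested in the top row. Bars for glucocorticoid-responsive genes drop from 15 to 11 of 36 members. Those for nuclear respiratory chain (41 to 7 of 75) and ribosomal protein genes (32 to 5 of 79) drop further.

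Untreated MASLD livers gave a reference level that the contrast did not use. By distance on the log2 scale, their mean lay nearer to the 1x than to the 0.1x mean for 60.8% of all genes tested, for 74.3% of the rises and for 70.4% of the falls. With the trend removed before calling, but not from the CPM compared, the share was 52.9% for rises and 52.9% for falls. Among held calls it was 60.7% of 107 rises and 57.7% of 52 falls. Single genes took both forms. For Mt2, Irgm2, Igtp, H2-Q7 and Manf the untreated level lay near or below the 0.1x libraries, and for Abca1, Hipk2, Cyp26b1, Ppara and Cdkn1a near the 1x libraries. Among the largest falls named above, the untreated mean lay nearer to the 1x mean for Cxcl13 (0.440 ± 0.193 CPM) and Mup18 (8.97 ± 3.61 CPM). It lay nearer to the 0.1x mean for Lst1, Clec4a2, Cd83 and Bhlhe41. For Gadd45a it was 3.20 ± 0.187 CPM, nearer to the 1x mean (SD, n = 3 each). Hipk2, a kinase of the p53 pathway, stood at 6.35, 8.23 and 7.47 CPM at 0.1x, at 32.1, 20.2 and 18.0 CPM at 1x (1.67 ± 0.24 SE, adjusted p = 0.00289, edgeR, held) and at 25.6 ± 0.902 CPM in untreated MASLD livers (SD, n = 3). These positions are descriptions and were not tested. All distances were taken on CPM that still held the trend in transcript length. In that trend the untreated MASLD libraries lay on the opposite side from the 0.1x libraries. The 1x libraries with a clear deviation lay on the same side as the MASLD libraries. The part of the trend in these shares and positions was not tested.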

How the data were processed

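The 12 livers were processed with a stranded poly(A) RNA kit and read as 150-base pairs, per the labels' protocols. Reads were aligned with STAR 2.7.3a to mm10, per the submitters' processing notes. The counting tool, its annotation and its strand setting are not stated in the sources used here, so overlapping and antisense genes may share reads. The authors deposited raw counts per gene ID. Genes were annotated with GENCODE vM21 (GRCm38), which matched 55230 of 55471 IDs. The IDs left unmatched hold 0.00328% of counts.

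Counts of all 12 libraries were fitted in edgeR 4.0.16 (R 4.3.3, limma 3.58.1) with 1 coefficient per group, TMM factors and filterByExpr, and only the 3 libraries of each dose entered the contrast. The GC and length trend was a natural spline with 5 degrees of freedom in each of GC content and log2 transcript length, fitted to each library's deviation and passed as an offset. DESeq2 1.42.0, other scalings and filters, the fit of the 6 dose libraries alone, a replicate block and the omission of libraries were alternatives. On simulated counts with known changes for this contrast, over 13627 genes, the test recovered 18% of 1.5-fold, 70% of 2-fold and 82% of 4-fold changes. It called 3 unchanged genes. The simulated counts held no trend in GC content or length, so they do not measure false calls that such a trend could give. Same-dose libraries differed by more than sampling noise (chi-square per degree of freedom 28.5 to 97.6), so each counted as 1 replicate.

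Named genes are the 10 largest rises and falls whose higher dose group averaged 1 CPM or more, with doses that did not overlap, the same among held calls, up to 2 members per list and direction with the smallest adjusted p, and a set of fixed genes. Predicted genes, unnamed IDs and annotated pseudogenes were left out of the largest rises and falls, but not of the lists. Clec7a, a list member, is annotated as a polymorphic pseudogene. Not every gene that the rule selects is described above. Further list members are named as examples chosen after their values were seen. The members and gene lists were chosen with earlier results of these data known.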

Additional observations from a re-analysis of the deposited data

How the results depend on the processing

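With edgeR, the 989 rises and 813 falls became 445 and 299 with the 6 Aza-TdC libraries alone, 331 and 325 after removal of the GC and length trend, 179 and 75 at an adjusted p under 0.01, 167 and 93 without 0.1x replicate 3 and 1x replicate 2, and between 131 and 988 rises and 79 and 856 falls without 1 library. DESeq2 gave 1240 and 1146, and no filter 1462 and 1025. The replicate block gave 0 and 0, and 0 and 0 with the trend removed too (1639 and 1165 genes at an unadjusted p under 0.05). The doses share only replicate number 4 (r = -0.194 between the deviations of those libraries), too little to show whether the numbers pair the samples. Replicate numbers 1 and 2 each occur in a single library. In the block fit, 0.1x replicate 1 and 1x replicate 2 therefore added nothing to the contrast, and the 0 calls rest on the remaining libraries.

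Genes that did not pass changed sign as follows, in log2 fold change. With the trend removed, Dnmt3a gave -0.39, Fasn -0.10, Fgf21 0.20, Igf1 -0.087 and Isg15 0.32. With the replicate block, Dck gave 0.15, Hsd3b5 1.34, Mup7 0.52 and Uhrf1 -0.35. With both, Cidec gave 0.098, Dck 0.19, Dnmt3a -0.19, Fasn -0.17, Hsd3b5 1.56, Isg15 0.34, Mup7 0.79, Tet2 -0.025 and Uhrf1 -0.40. Upper-quartile factors gave Dnmt3a -0.0058. Without 0.1x replicate 3 and 1x replicate 2, Cidec gave 0.15, Dck 0.021, Fasn -0.33 and Fgf21 0.13. Over the fits that leave out libraries, singly or these together, the ranges were Cidec -0.50 to 0.15, Col1a1 -1.54 to 0.81, Dck -0.28 to 0.068, Dnmt3a -0.055 to 0.13, Fasn -0.33 to 0.60, Fgf21 -0.34 to 0.13, Hsd3b5 -0.74 to 0.99, Mup7 -1.23 to 0.42, Samhd1 -0.36 to 0.13, Trem2 -0.72 to 0.21 and Uhrf1 -0.037 to 0.83. The cause was not tested.

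No called gene that the rule names changed sign. Of these 105 genes, 44 lost their calls with the trend removed and 60 without 1x replicate 2. The number was 61 without 0.1x replicate 3 and 1x replicate 2, 105 with the replicate block, and 0 with DESeq2. Counts of 3 libraries per dose recovered few 1.5-fold changes in simulation, so small differences were often below detection.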

Other observations

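Acute phase genes, which the liver makes in response to interleukin 6 and related cytokines, split. Of 36 tested, 9 rose and 0 fell, 8 with the trend removed, and the median log2 fold change was 0.06. Without 1x replicate 2 3 rose, and those that held were Mt1, Mt2 and Il6ra. Il6ra, the receptor chain for interleukin 6, stood at 20.6, 21.6 and 28.2 CPM at 0.1x and at 74.0, 39.1 and 57.9 CPM at 1x, with no overlap (1.28 ± 0.23 SE, adjusted p = 0.0063, edgeR). The classical acute phase transcripts Saa1, Saa2 and Hp did not pass, with log2 fold changes of -0.13 ± 0.31, -0.32 ± 0.40 and 0.07 ± 0.15 (adjusted p = 0.818, 0.64 and 0.79, edgeR). Of 27 female-biased liver genes 3 rose and 0 fell, Fmo2, Fmo4 and Trim24, beside 7.13% and 5.86% of all genes tested, and 3 rose with the trend removed. Fmo4 lost its call without 0.1x replicate 1 or 4 or 1x replicate 2 or 5. Trim24 and Fmo2 held. Fmo2, a flavin monooxygenase, stood at 7.62, 9.12 and 10.6 CPM against 24.4, 24.1 and 23.3 CPM (1.39 ± 0.26 SE, adjusted p = 0.00717, edgeR).

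Among the held calls, S100a10, Anxa2 and Fgf1 are given here and were chosen after their values were seen. S100a10 stood at 180, 221 and 167 CPM at 0.1x and at 67.9, 97.2 and 84.4 CPM at 1x (-1.19 ± 0.18 SE, adjusted p = 0.00417, edgeR). Its protein partner Anxa2 stood at 25.9, 35.4 and 36.8 CPM against 9.48, 13.9 and 17.5 CPM (-1.27 ± 0.24 SE, adjusted p = 0.00844, edgeR), and at 65.1 ± 15.8 CPM in untreated MASLD and 9.37 ± 2.36 CPM in SD livers (SD, n = 3, no test). The doses did not overlap for either gene. Fgf1, a growth factor, stood at 53.1, 69.2 and 50.2 CPM against 116, 95.2 and 115 CPM (0.92 ± 0.15 SE, adjusted p = 0.00417, edgeR).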
